A study of Mus musculus with 18 samples.

Results

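The EMT and mesenchymal transcription factors *Snai1*, *Snai2*, *Twist1*, *Twist2*, *Zeb1*, *Zeb2*, *Prrx1*, and *Tcf21* were described in WT and FOXS1 KO 10T1/2 cells. These 8 genes were taken by name from the 54532 genes of a count table, and the choice was made with earlier results of these data known. Counts were found for 7 of them, each among the 14317 genes kept for testing after genes of low count were left out, while *Tcf21* had no count in any library.

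The cells were 10T1/2, a mouse embryonic fibroblast line that can become adipocytes, written CH310T1/2 in the labels and there called mesenchymal stem cells. Poly(A) RNA of WT cells, FOXS1 KO clone 1, and FOXS1 KO clone 2 was sequenced. Each genotype was either left uninduced (labelled Control) or stimulated, which here means TGF-β1 (1 nM, 12 h) followed by DMII for 48 h, which gave 6 groups of 3 libraries. DMII is an adipogenic mixture of insulin, indomethacin, dexamethasone, and the phosphodiesterase inhibitor IBMX. The design asks how loss of FOXS1, a forkhead factor, alters the state reached after TGF-β1 and DMII. Each KO line is 1 clone, the WT libraries are shared by the comparisons of both clones, and the effects of TGF-β1 and of DMII cannot be told apart because no library analysed here received only 1 of them. The labels do not say that the 3 libraries of a group came from separate cultures, so p-values measure the spread between these libraries.

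The Snail, Zeb, and Twist families are the classical drivers of epithelial to mesenchymal transition (EMT). Snail and Zeb proteins are zinc finger repressors that bind E2-box sequences and silence epithelial genes such as *Cdh1*, and Twist proteins are basic helix-loop-helix (bHLH) factors that pair with E proteins. TGF-β1 acts through SMAD proteins upstream of several of these genes. PRRX1 is a homeodomain factor and TCF21 a bHLH factor of mesenchymal progenitors, and fibroblasts carry most of these factors in the absence of any epithelial state.

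Library totals ran from 15576685 to 42005596 counts, with a median of 20178953.5. Replicates correlated across genes with r of 0.963 to 0.993, and both lowest values involved replicate 1 of uninduced WT. The targeted gene, *Foxs1*, did not show the edit in its counts. Its level was 1.81, 3.25, and 1.64 CPM (counts relative to the library total after TMM scaling) in uninduced WT and 3.13, 2.55, and 1.85 CPM in stimulated WT. Libraries whose label is FOXS1 KO clone 1 held 26.7, 27.1, and 23.4 CPM uninduced and 53.6, 52.9, and 56.8 CPM stimulated. Those labelled clone 2 held 21.1, 22.9, and 23.9 CPM uninduced and 38.8, 38.0, and 42.8 CPM stimulated. Thus every library labelled KO lay above every WT library (log2 fold change 4.44 ± 0.149 (SE), adjusted p = 1.43e-20 for clone 1, and 3.99 ± 0.151, adjusted p = 2.81e-19 for clone 2, stimulated). Gene totals do not separate edited from intact transcripts, so each direction given for a clone rests on the labels. The study reported loss of FOXS1 protein in both clones by western blot, and disruption of the locus by sequencing of genomic DNA. These counts measure neither. All 10 fibroblast markers, among them *Col1a1* and *Vim*, had counts in every group, and their summed level was at least 40118 CPM. With stimulation of WT, 3 of the 10 rose and 3 fell by a log2 fold change above 1 in size. Those that fell were *Vim*, *Dcn*, and *Lum* (-1.84, -3.36, and -3.34), which also fell in both clones. *Thy1* was near 0 in clone 2, at 0.616 CPM uninduced and 0.342 CPM stimulated, against 59.6 and 49.0 CPM in WT and 184 and 161 CPM in clone 1. Summed levels stayed at or below 1.77 CPM for 8 immune markers, 7.92 CPM for 8 endothelial markers (highest in uninduced WT), and 0.310 CPM for 6 skeletal muscle markers. In bulk RNA, fewer cells of a type and less RNA per cell cannot be told apart.

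The members were located on GRCm38 by the coordinates of the deposited table, which match GENCODE M21 for all 8. *Snai1* (ENSMUSG00000042821) is at chr2:167538195-167542814 on the plus strand and *Snai2* (ENSMUSG00000022676) at chr16:14705852-14709385 on the plus strand. *Twist1* (ENSMUSG00000035799) is at chr12:33957671-33959829 and *Twist2* (ENSMUSG00000007805) at chr1:91801461-91848028, both on the plus strand. *Zeb2* (ENSMUSG00000026872) lies at chr2:44983632-45117395, *Prrx1* (ENSMUSG00000026586) at chr1:163245119-163313710, and *Tcf21* (ENSMUSG00000045680) at chr10:22817281-22820174, all on the minus strand.

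The stretches upstream of *Snai1*, *Zeb2*, and *Prrx1* are shown because these 3 genes carried the calls between the clones and WT. They are RefSeq promoter sequence on GRCm38.p6, read 5′ to 3′ on the strand of the gene, and lie outside the gene as deposited: chr2:167537945-167538194 (plus), chr2:45117443-45117692 (minus, the first of 4 *Zeb2* starts), and chr1:163313711-163313900 (minus, 190 bases). Capitals mark an E2-box (CAGGTG or CACCTG), the sequence bound by Snail and Zeb proteins, or a SMAD element (CAGAC or GTCTG).
Snai1: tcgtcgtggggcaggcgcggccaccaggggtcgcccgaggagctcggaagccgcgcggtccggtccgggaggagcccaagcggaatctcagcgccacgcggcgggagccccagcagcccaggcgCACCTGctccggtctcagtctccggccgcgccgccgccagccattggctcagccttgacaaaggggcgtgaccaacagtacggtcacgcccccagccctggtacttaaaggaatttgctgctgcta
Zeb2: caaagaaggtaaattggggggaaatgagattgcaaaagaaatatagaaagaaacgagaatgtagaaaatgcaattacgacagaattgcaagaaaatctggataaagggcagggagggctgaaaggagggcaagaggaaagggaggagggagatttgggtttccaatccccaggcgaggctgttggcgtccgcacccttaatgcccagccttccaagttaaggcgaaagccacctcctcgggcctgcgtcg
Prrx1: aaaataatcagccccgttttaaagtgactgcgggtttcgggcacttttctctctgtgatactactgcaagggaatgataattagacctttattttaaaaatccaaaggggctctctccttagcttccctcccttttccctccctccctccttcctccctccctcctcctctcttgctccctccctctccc
The *Snai1* window holds 1 E2-box, 126 bases before the start, and a hexamer of this kind was found in 17.2% of 32851 RefSeq promoters of 250 bases. A SMAD element, present in 42.2% of promoters, was found once each for *Twist1* and *Prrx1* and 3 times for *Tcf21*, and that of *Prrx1* lies in the bases inside the deposited gene that are not shown. Neither a forkhead core (TAAACA or TGTTTA, 12.0% of promoters) nor a CArG box (1.47%) was found in the windows of the 6 members searched. Both strands were searched, none of these motifs overlaps another, and a match is a description of letters only.

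Levels of different members were compared as CPM per kb of the deposited gene length. In uninduced WT the order was *Snai1* (97.3), *Prrx1* (55.0), *Snai2* (44.5), *Twist1* (23.2), *Zeb1* (9.53), *Zeb2* (3.81), and *Twist2* (1.19 CPM per kb). After stimulation of WT it was *Snai1* (223), *Prrx1* (93.5), *Twist1* (28.8), *Zeb1* (19.9), *Snai2* (13.7), *Zeb2* (1.53), and *Twist2* (0.605 CPM per kb). *Snai2* therefore moved from below *Prrx1* to below *Zeb1*. *Snai2* led the order only in uninduced clone 1, at 60.5 CPM per kb against 46.3 for *Snai1*. In uninduced clone 2 the same genes stood at 62.6 and 69.0 CPM per kb. Neighbours in the order had ranges over libraries that did not overlap, except *Snai2* (22.4) and *Twist1* (20.3 CPM per kb) in stimulated clone 1. *Snai1* made up 41.5% of the summed per-length level of the members in uninduced WT and 58.5% in stimulated WT, against 25.5% and 69.4% in clone 1 and 32.0% and 66.3% in clone 2. Among the 938 tested transcription factor genes ranked per length, *Snai1* went from rank 10 to rank 3 in WT, from 31 to 5 in clone 1, and from 20 to 4 in clone 2.

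**Figure D1:**
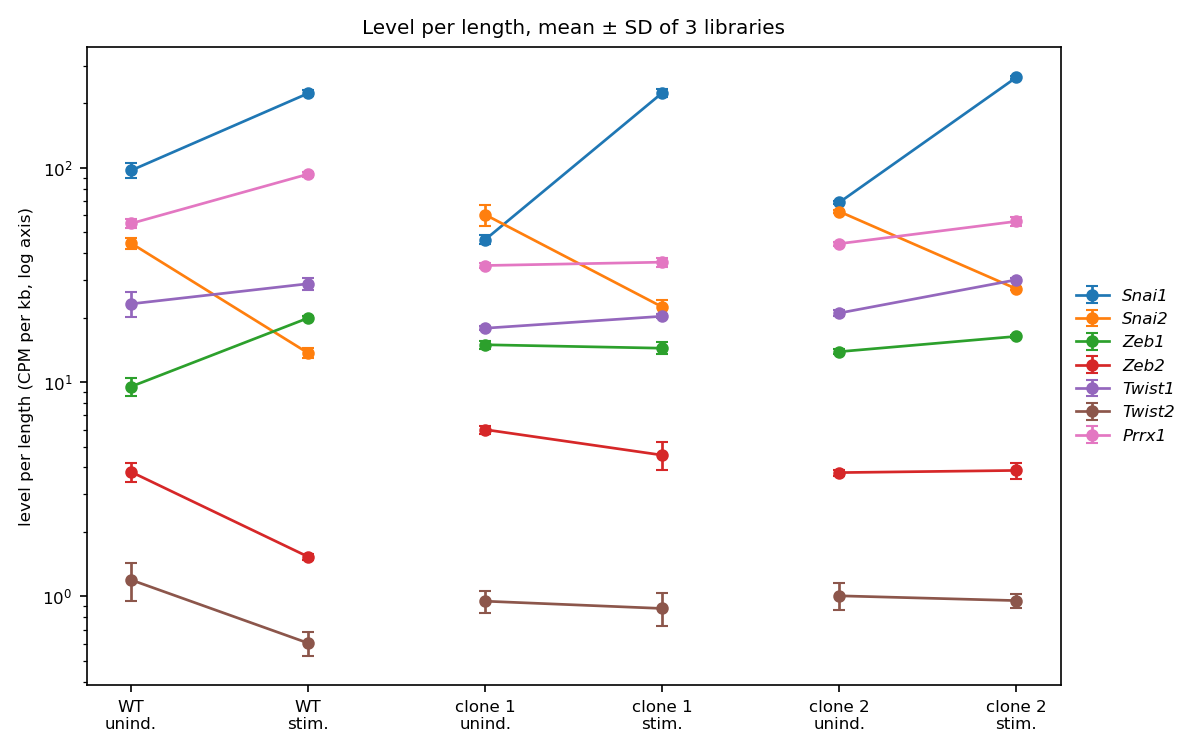
Mean level per length (CPM per kb, log axis) of the 7 members with counts in each of the 6 groups, with bars for the SD of 3 libraries. *Snai1* stands highest in 5 groups and second to *Snai2* in uninduced clone 1, and *Twist2* stands lowest in all 6.

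*Snai1*, which encodes the Snail repressor, rose with stimulation in all 3 genotypes, and both clones started below WT. In WT it was at 155, 171, and 147 CPM uninduced and 366, 371, and 348 CPM stimulated. Clone 1 held 73.7, 79.0, and 72.3 CPM uninduced and 378, 365, and 347 CPM stimulated. Clone 2 held 111, 111, and 114 CPM uninduced and 436, 427, and 424 CPM stimulated. Uninduced libraries of the 3 genotypes did not overlap, whereas stimulated clone 1 overlapped stimulated WT. The rise was 2.29-fold in WT (log2 1.20 ± 0.0516 (SE), adjusted p = 2.24e-18), 4.84-fold in clone 1 (2.28 ± 0.0542, adjusted p = 1.42e-24), and 3.84-fold in clone 2 (1.94 ± 0.0527, adjusted p = 2.62e-23). Uninduced clone 1 was below WT at a log2 difference of -1.07 ± 0.0537 (adjusted p = 1.55e-16), and uninduced clone 2 was lower by less than the fold threshold (log2 -0.50 ± 0.0521, adjusted p = 2.43e-09). Stimulated clone 1 was at a log2 difference of 0.01 from WT (95% interval -0.10 to 0.11, adjusted p = 0.923), which was -0.02 when libraries were scaled by total counts. Stimulated clone 2 was higher by 0.25 (adjusted p = 1.12e-04), under the fold threshold. The response itself was larger than in WT by 1.08 ± 0.0734 on the log2 scale in clone 1 (adjusted p = 4.99e-13) and by 0.74 ± 0.0724 in clone 2 (adjusted p = 1.52e-09).

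*Snai2*, which encodes the paralog Slug, fell where *Snai1* rose. WT libraries were at 90.4, 95.2, and 84.2 CPM uninduced and 26.4, 29.2, and 27.2 CPM stimulated. Clone 1 held 128, 132, and 107 CPM uninduced and 41.4, 47.9, and 46.7 CPM stimulated. Clone 2 held 124, 126, and 129 CPM uninduced and 54.5, 56.0, and 54.8 CPM stimulated. Every clone library lay above every WT library of the same treatment. The drop was 3.25-fold in WT (log2 -1.70 ± 0.0739, adjusted p = 2.75e-18), 2.69-fold in clone 1 (-1.43 ± 0.0706, adjusted p = 7.26e-17), and 2.29-fold in clone 2 (-1.20 ± 0.0704, adjusted p = 4.24e-15). Stimulated clone 2 was 1.99-fold above WT (log2 0.995 ± 0.0758, adjusted p = 1.95e-12), just under the fold threshold of 1 on the log2 scale, and stimulated clone 1 was higher by 0.72 (adjusted p = 1.72e-09). Uninduced differences were 0.44 and 0.49 (adjusted p = 2.33e-06 and 3.59e-07). The 335 other tested genes of chromosome 16 with a mean of at least 5 CPM also had a median above WT in clone 2. It was 0.42 stimulated and 0.39 uninduced, against 0.13 and 0.12 in clone 1. The part of this offset in the *Snai2* difference was not tested. Per length, *Snai1* stood at 2.19 ± 0.0536 (SD, n = 3) times *Snai2* in uninduced WT and 16.3 ± 0.811 times in stimulated WT. The ratio went from 0.769 ± 0.0657 to 10.0 ± 1.16 in clone 1 and from 1.10 ± 0.00840 to 9.71 ± 0.244 in clone 2.

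**Figure D2:**
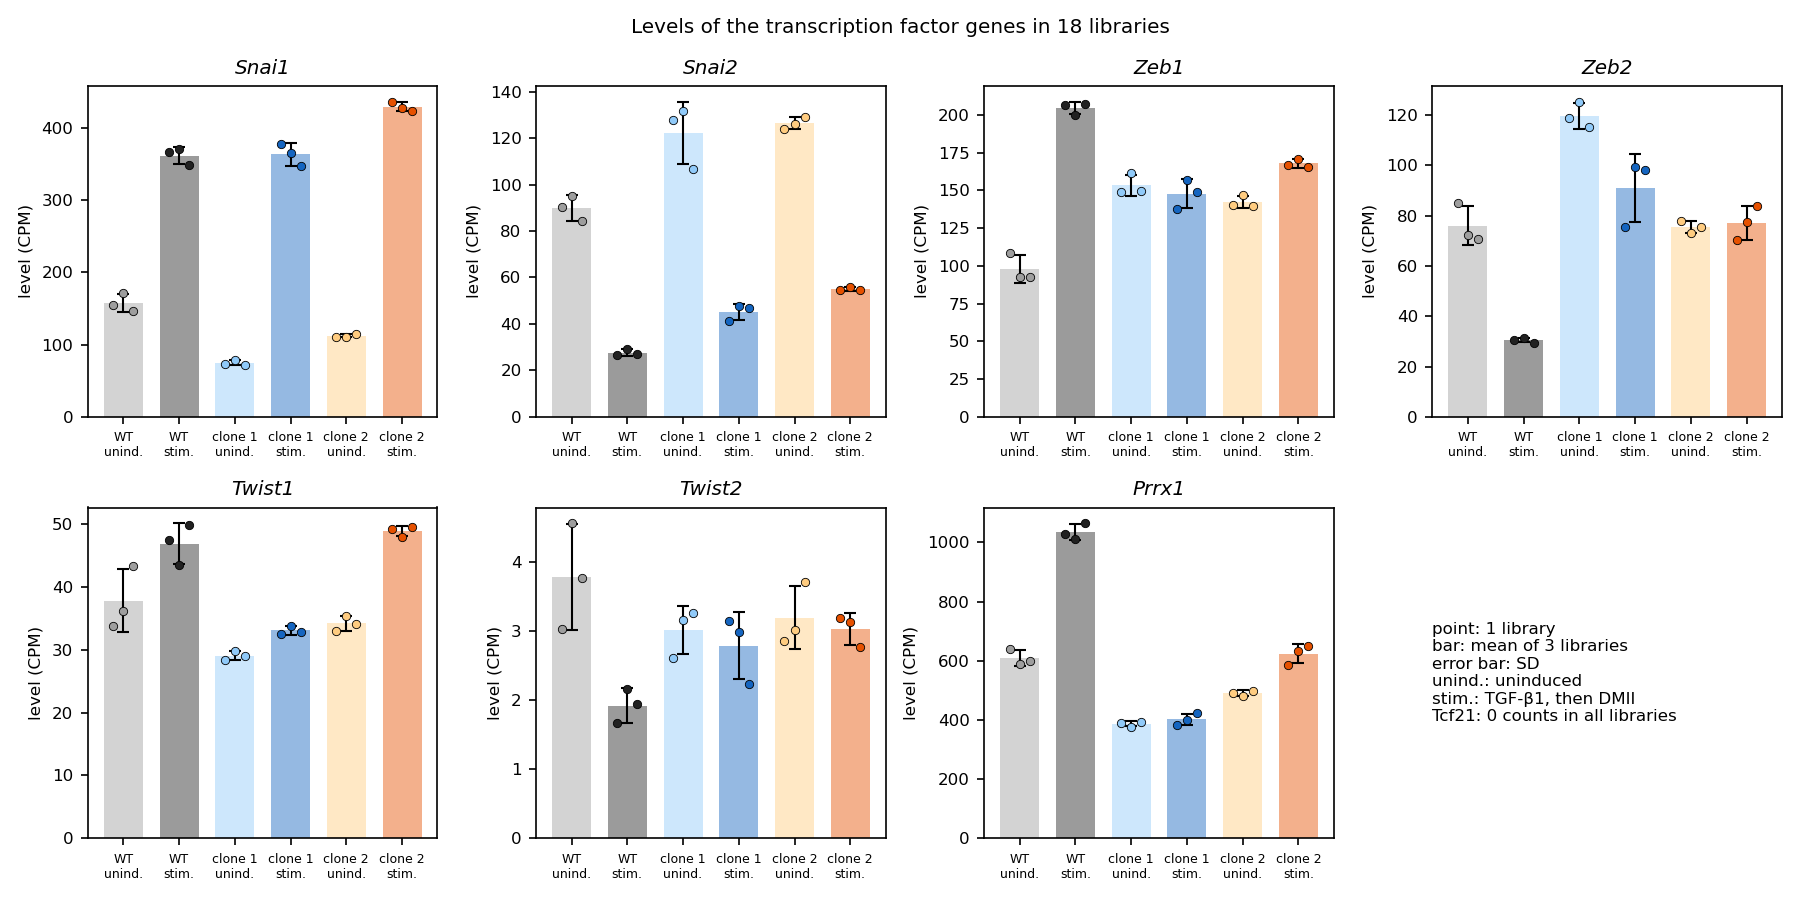
Level of each of the 7 members with counts (CPM, TMM-scaled, 1 panel a gene, axes from 0) in the 3 libraries of each of the 6 groups, with bars for the mean and error bars for the SD. *Snai1* points of stimulated libraries lie at 347 CPM or above in every genotype, and *Zeb2* points of stimulated WT, at 29.5 to 31.4 CPM, lie below all other groups.

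*Zeb1* and *Zeb2*, the paralogous zinc finger homeobox repressors, moved in opposite directions in WT. *Zeb1* (ENSMUSG00000024238) lies on the plus strand at chr18:5591860-5775467. It was at 108, 92.6, and 92.5 CPM in uninduced and 207, 199.7, and 207 CPM in stimulated WT. Clone 1 held 149, 162, and 149.8 CPM uninduced and 138, 157, and 149 CPM stimulated, and clone 2 held 141, 147, and 140.0 CPM uninduced and 167, 171, and 166 CPM stimulated. The groups did not overlap in WT or clone 2 and overlapped in clone 1. *Zeb1* rose 2.09-fold in WT (log2 1.07 ± 0.0574, adjusted p = 4.96e-16). In clone 1 its response was -0.05 ± 0.0566 (95% interval -0.17 to 0.06, adjusted p = 0.463), and in clone 2 it was 0.24 ± 0.0566 (adjusted p = 6.89e-04), which became -0.06 with total counts as library size. The response was smaller than in WT by -1.12 ± 0.0804 in clone 1 (adjusted p = 1.82e-12) and by -0.83 ± 0.0804 in clone 2 (adjusted p = 1.43e-09). The clones stood above WT uninduced, by 0.65 and 0.54 (adjusted p = 7.12e-11 and 2.66e-09), and below WT stimulated, by -0.47 and -0.28 (adjusted p = 2.42e-08 and 7.81e-05), all under the fold threshold.

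*Zeb2* libraries of WT were at 84.9, 72.4, and 70.6 CPM uninduced and 30.6, 31.4, and 29.5 CPM stimulated. Clone 1 held 119, 125, and 115 CPM uninduced and 75.5, 99.5, and 98.0 CPM stimulated, and clone 2 held 77.9, 73.0, and 75.4 CPM uninduced and 70.3, 77.5, and 83.8 CPM stimulated. Stimulated WT lay below every other library, while uninduced and stimulated clone 2 overlapped. *Zeb2* fell 2.48-fold in WT (log2 -1.31 ± 0.0905, adjusted p = 3.33e-12). The response was -0.39 ± 0.0835 in clone 1 (adjusted p = 2.89e-04) and 0.03 ± 0.0856 in clone 2 (95% interval -0.15 to 0.21, adjusted p = 0.789), the latter -0.26 with total counts as library size. Stimulated clones exceeded WT 2.99-fold (log2 1.58 ± 0.0898, adjusted p = 7.45e-14) and 2.53-fold (1.34 ± 0.0912, adjusted p = 3.13e-12). Uninduced, clone 1 was higher by 0.66 (adjusted p = 3.62e-07) and clone 2 differed by -0.01 (95% interval -0.18 to 0.17, adjusted p = 0.957), a value that became 0.04 without the filter on low counts. The response differed from WT by 0.92 ± 0.123 in clone 1 (adjusted p = 1.52e-06) and by 1.34 ± 0.124 in clone 2 (adjusted p = 3.85e-09). Per length, *Zeb1* stood at 2.50 ± 0.0371 (SD, n = 3) times *Zeb2* in uninduced and 13.0 ± 0.653 times in stimulated WT. The same ratio was 2.49 ± 0.0461 and 3.19 ± 0.314 in clone 1 and 3.67 ± 0.206 and 4.25 ± 0.388 in clone 2.

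**Figure D3:**
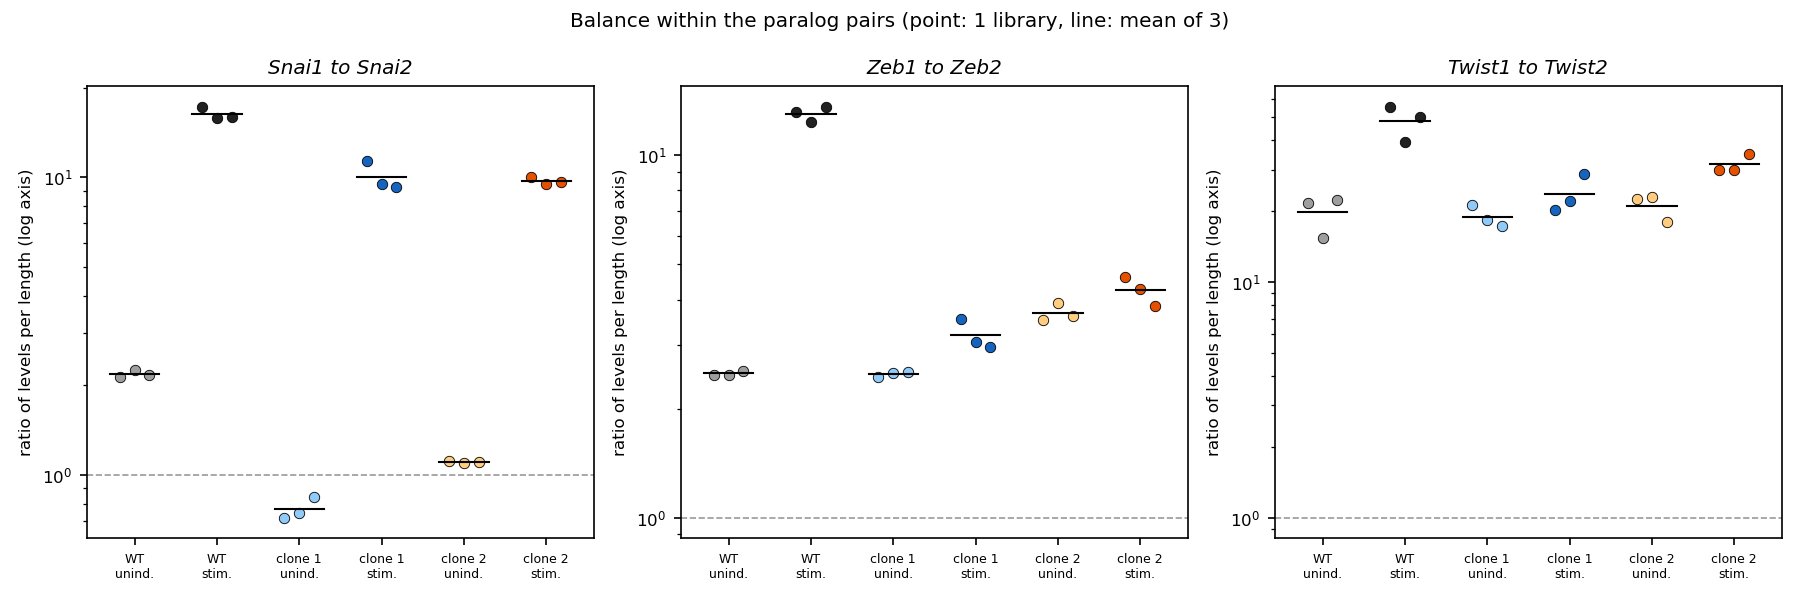
Per-length ratio (log axis) of the paralogs *Snai1* to *Snai2*, *Zeb1* to *Zeb2*, and *Twist1* to *Twist2*, with 1 point for each library of the 6 groups. The *Snai1* to *Snai2* ratio is higher after stimulation in all 3 genotypes, and the *Zeb1* to *Zeb2* ratio reaches 13.0 in stimulated WT against 3.19 and 4.25 in the stimulated clones.

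*Prrx1* was among the most abundant members and was lower in both clones. WT libraries held 639, 588, and 599 CPM uninduced and 1029, 1012, and 1065 CPM stimulated. Clone 1 held 391, 378, and 394 CPM uninduced and 383, 401, and 422 CPM stimulated, and clone 2 held 492, 479.6, and 499 CPM uninduced and 587, 634, and 648 CPM stimulated. Every clone library was below every WT library of the same treatment, and uninduced and stimulated clone 1 overlapped. Stimulated clone 1 was 2.58-fold below WT (log2 -1.37 ± 0.0463, adjusted p = 5.74e-21), and stimulated clone 2 was 1.66-fold below (-0.73 ± 0.0457, adjusted p = 1.91e-14), under the fold threshold. Uninduced differences were -0.65 and -0.31 (adjusted p = 4.65e-13 and 9.62e-07). With stimulation *Prrx1* was 1.70-fold higher in WT (log2 0.77 ± 0.0456, adjusted p = 5.61e-15), under the threshold. The response was 0.05 ± 0.0459 in clone 1 (95% interval -0.04 to 0.15, adjusted p = 0.36), which became -0.19 with total counts as library size, and 0.35 ± 0.0457 in clone 2 (adjusted p = 1.49e-07). It differed from that of WT by -0.71 and -0.42 (adjusted p = 2.77e-10 and 5.50e-06). The 24 nearest tested genes had a median of -0.43 in stimulated clone 1 and 0.10 in stimulated clone 2 against WT. Medians over the 581 other tested genes of chromosome 1 with a mean of at least 5 CPM were -0.24 and 0.06. The part of these offsets in the *Prrx1* difference was not tested.

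*Twist1* libraries held 33.8, 36.1, and 43.4 CPM in uninduced and 47.4, 43.4, and 49.8 CPM in stimulated WT. Clone 1 held 28.4, 29.8, and 28.9 CPM uninduced and 32.5, 33.8, and 32.8 CPM stimulated, and clone 2 held 33.0, 35.4, and 34.1 CPM uninduced and 49.2, 48.0, and 49.5 CPM stimulated. Clone 1 lay below WT in both treatments, and clone 2 overlapped WT in both. No *Twist1* difference passed the fold threshold. Stimulation gave 0.31 ± 0.0787 in WT (adjusted p = 0.0013), 0.19 ± 0.0815 in clone 1 (adjusted p = 0.0548, and -0.06 with total counts as library size), and 0.52 ± 0.0793 in clone 2 (adjusted p = 1.90e-06). Stimulated clone 1 differed from WT by -0.50 (adjusted p = 2.60e-06) and stimulated clone 2 by 0.06 (adjusted p = 0.533), the latter -0.05 with total counts. The 356 other tested genes of chromosome 12 with a mean of at least 5 CPM were also compared with WT. Their median was -0.25 in stimulated clone 1 and 0.18 in stimulated clone 2.

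*Twist2*, the paralog of *Twist1*, was the lowest member with counts. It held 3.03, 4.56, and 3.77 CPM in uninduced and 1.66, 2.16, and 1.94 CPM in stimulated WT. Clone libraries ranged from 2.23 to 3.71 CPM over both treatments. Stimulated WT lay below every other library, and its response was -0.98 ± 0.238 (adjusted p = 7.57e-04), just under the fold threshold. Responses were -0.11 in clone 1 (adjusted p = 0.719) and -0.06 in clone 2 (adjusted p = 0.86), and differed from WT by 0.86 ± 0.334 and 0.92 ± 0.334 (adjusted p = 0.0481 and 0.0357). Of the 1138 *Twist2* counts over all libraries, the equivalent of 15.6% (178 counts) lay in the antisense gene *Gm29100*, and without a stated strand setting reads of the pair cannot be told apart. *Tcf21* had 0 of 387622970 counts over the 18 libraries. A total of 3 counts would be 0.00774 CPM over all libraries and between 0.0714 and 0.193 CPM in a single library, so a level below this was not detectable.

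With stimulation, 2 members rose and 2 fell in WT, and 1 rose and 1 fell in each clone. A gene was called where edgeR's quasi-likelihood test gave an adjusted p (Benjamini-Hochberg) under 0.05 and the log2 fold change was above 1 in size. In WT 4 of the 7 members were called, where 19.9% of all tested genes were. *Snai1* and *Zeb1* rose (6.25% of all genes were called higher), and *Snai2* and *Zeb2* fell (13.6% were called lower). With total counts as library size 3 were called, *Snai1* and *Zeb1* being at 0.98 and 0.84 and *Twist2* at -1.20. By adjusted p alone all 7 differed (60.7% of all genes), and the groups of all 7 did not overlap (62.0%). In each clone 2 members were called, *Snai1* higher and *Snai2* lower. All genes were called at 16.7% in clone 1 (5.95% higher and 10.7% lower) and at 17.7% in clone 2 (6.46% higher and 11.2% lower). By adjusted p alone these counts were 3 in clone 1 (54.5%) and 5 in clone 2 (55.8%), and 4 (61.0%) and 5 (64.9%) had groups that did not overlap. The median absolute log2 change of the members was 1.07 in WT, beside 0.458 for all tested genes, 0.186 in clone 1, beside 0.394, and 0.346 in clone 2, beside 0.406. Scaling by total counts moved the median of all genes to -0.22, -0.25, and -0.30 in WT, clone 1, and clone 2, from -0.04, -0.02, and -0.02. The difference in response from WT was called for *Snai1* and *Zeb1* in clone 1 (8.81% of all genes) and for *Zeb2* in clone 2 (7.85%), and 6 of the 7 members differed by adjusted p alone in each clone (31.6% and 31.2%).

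**Figure D4:**
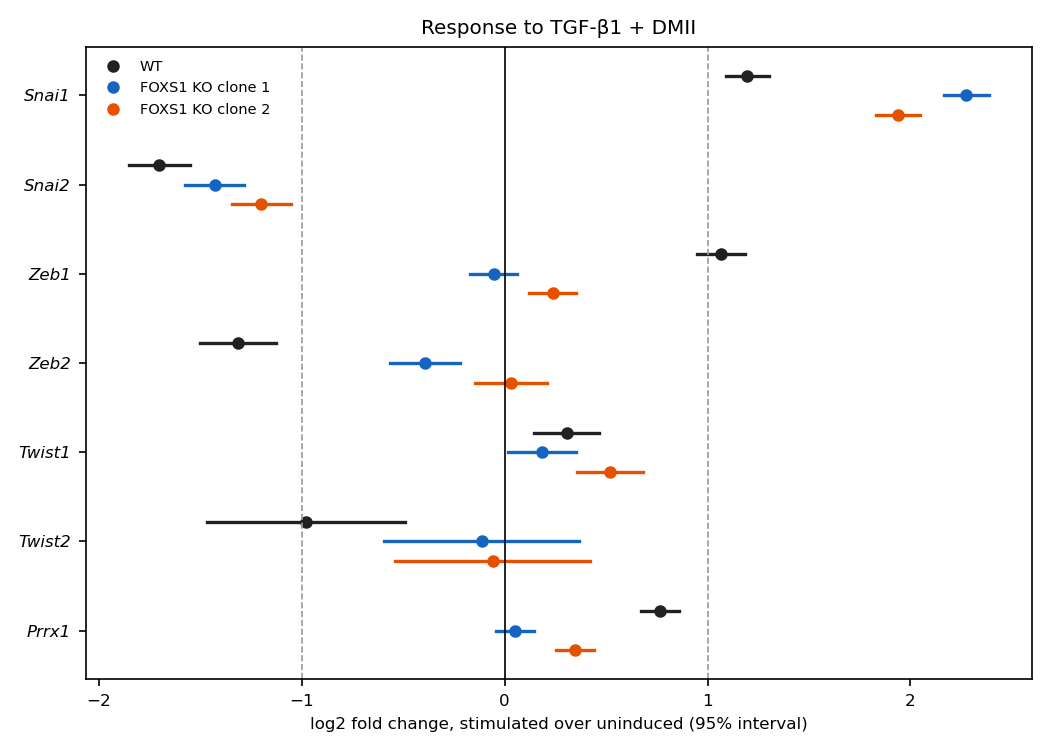
Log2 fold change of each of the 7 members between stimulated and uninduced cells in WT, clone 1, and clone 2, with bars for the 95% interval of the fit and dashed lines at the fold threshold. *Snai1* is above and *Snai2* below the threshold in all 3 genotypes, and in WT *Zeb1* lies at 1.07 and *Zeb2* at -1.31, while with total counts as library size *Snai1* and *Zeb1* in WT are under it, at 0.98 and 0.84.

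Between the stimulated clones and WT, *Zeb2* was called higher in both and *Prrx1* was called lower in clone 1. *Prrx1* was also lower in clone 2 (-0.73), and *Snai2* was higher there (0.995), both under the fold threshold. The calls were 2 of 7 members in clone 1 (19.0% of all genes) and 1 of 7 in clone 2 (16.9%). *Zeb2* was the member called in the same direction in both stimulated clones, as were 11.0% of all genes. By adjusted p alone 5 members differed in clone 1 (58.9%) and 6 in clone 2 (56.0%), and groups did not overlap for 6 in each (65.9% and 65.6%). In the uninduced cells *Snai1* was called in clone 1 (15.1% of all genes), where 6 differed by adjusted p alone (53.5%) and 6 had groups that did not overlap (55.7%). No member was called in clone 2 (15.1%), where edgeR and DESeq2 both called 0 and 4 of 7 had an unadjusted p below 0.05, the same number as by adjusted p alone (53.2%) and as had groups that did not overlap (55.2%). *Snai2*, *Zeb1*, and *Prrx1* differed from WT in all 4 of these comparisons by adjusted p alone, with *Zeb1* above WT uninduced and below it stimulated. Adipocyte markers stood apart in the same libraries. The summed level of the 9 listed (6 tested) was 6.44 to 8.41 CPM in stimulated WT, 58.7 to 75.3 CPM in stimulated clone 1, and 16.6 to 23.2 CPM in stimulated clone 2, against 17.1 to 18.8 CPM in the uninduced groups. All 6 tested were called higher in stimulated clone 1 and 3 in stimulated clone 2, among them *Lipe*, a lipase of stored fat (log2 2.13 and 1.25, adjusted p = 7.55e-16 and 4.20e-10), and their part in the member differences was not tested.

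**Figure D5:**
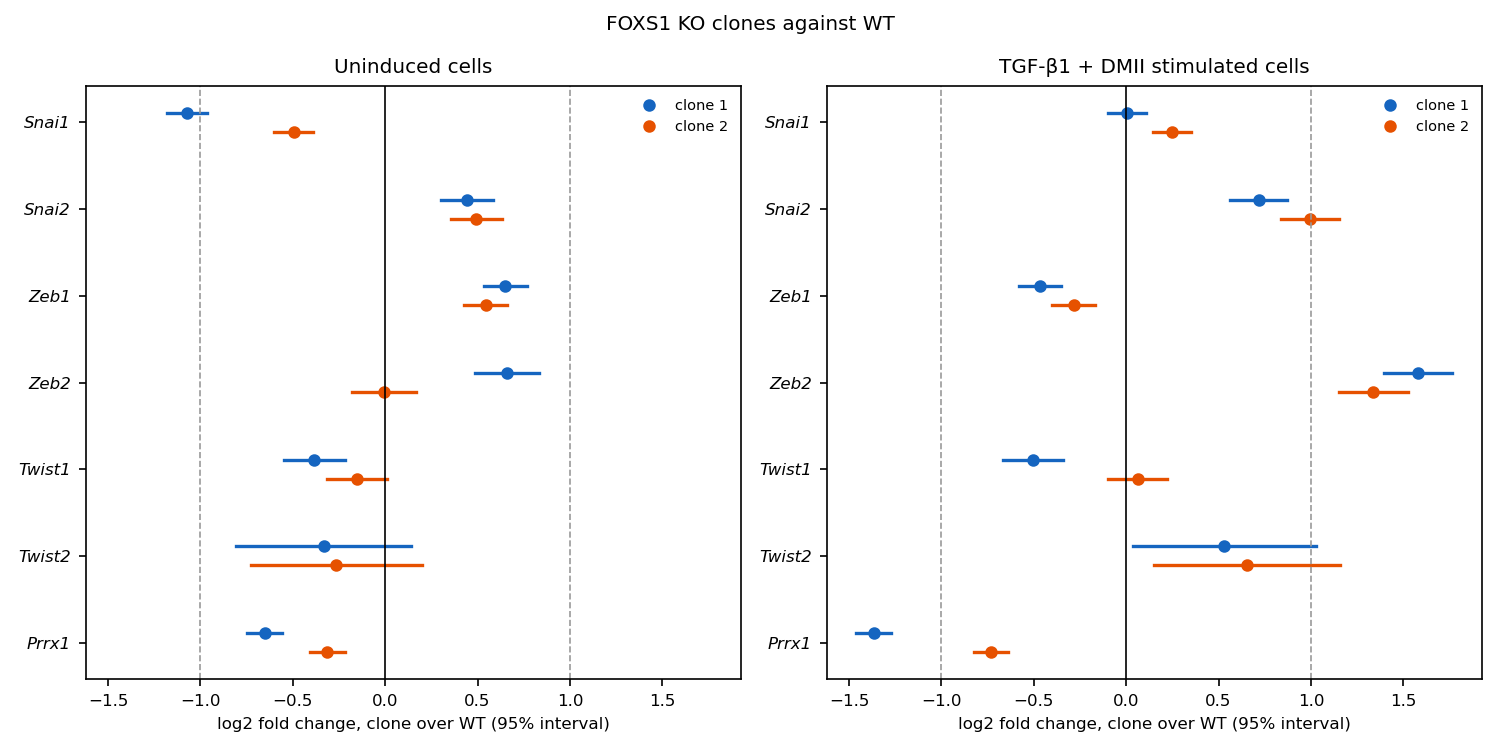
Log2 fold change of each of the 7 members in FOXS1 KO clones 1 and 2 against WT, uninduced and stimulated, with bars for the 95% interval of the fit and dashed lines at the fold threshold. In stimulated cells *Zeb2* lies at 1.58 and 1.34 and *Prrx1* at -1.37 and -0.73.

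The clones also differed from each other. Between them 0 members were called by edgeR or DESeq2, either stimulated (9.98% of all genes in edgeR) or uninduced (8.67%), while 6 of 7 stimulated (45.4%) and 4 of 7 uninduced (42.2%) differed by adjusted p alone, and as many had an unadjusted p below 0.05. Groups did not overlap for 5 members in each treatment (54.6% stimulated and 55.6% uninduced). *Prrx1* was lower in clone 1 than in clone 2 by -0.63 stimulated and -0.34 uninduced (adjusted p = 1.54e-12 and 4.73e-07). *Snai1* was lower in clone 1 by -0.24 stimulated and -0.58 uninduced (adjusted p = 2.16e-04 and 4.01e-10). *Zeb2* was higher in clone 1 by 0.24 and 0.67 (adjusted p = 0.0234 and 4.47e-07). For clone 1 against clone 2, medians were also taken over the other tested genes of a chromosome with a mean of at least 5 CPM. They were -0.36 stimulated and -0.33 uninduced for chromosome 1 (*Prrx1*), and 0.22 in both treatments for chromosome 2 (*Snai1* and *Zeb2*). The part of these offsets in the member differences was not tested. *Twist1* was lower in clone 1 by -0.57 stimulated (adjusted p = 8.32e-07), beside a median of -0.42 for chromosome 12.

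Over the 18 libraries, which share their 6 groups, *Snai1* and *Snai2* correlated with r = -0.87, *Zeb2* and *Prrx1* with r = -0.91, and *Twist1* and *Prrx1* with r = 0.80 (Pearson, log2 CPM). *Snai2* and *Zeb2* had r = 0.72 and *Zeb1* and *Zeb2* r = -0.45. Among 9655 genes, the patterns most like *Snai1* were those of *Atp2c1*, *Ltbp2*, and *Fbln5* (r = 0.98 each), a calcium pump and 2 genes of elastic fiber assembly. Nearest to *Snai2* were *Hexa*, *Rab3il1*, and *Col4a5* (0.99 each), near to *Zeb2* were *Peli2* and *Zfp385a* (0.96 each), and nearest to *Prrx1* were *Aebp1* (0.98), *Mn1*, and *Ipo13* (0.97 each). *Zeb1* was most like *Myh9* (0.93), *Chac1*, and *Adamtsl3* (0.92 each), *Twist1* like *Desi2*, *Zc3h10* (0.95 each), and *Gpatch2* (0.94), and *Twist2* like *Agpat3* (0.86), *Retreg2*, and *Sh3bp5* (0.83 each). An r above 0.95 was reached by 93 genes for *Snai2*, 56 for *Snai1*, 15 for *Prrx1*, 8 for *Zeb2*, 1 for *Twist1*, and none for *Zeb1* or *Twist2*.

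Upstream of the members, 16 genes of the TGF-β and SMAD arm were tested. With stimulation 5 were called higher and 1 lower in WT, and 7 higher and 1 lower in each clone, and the medians were 0.34, 0.57, and 0.59 on the log2 scale. Of all tested genes 6.25%, 5.95%, and 6.46% were called higher and 13.6%, 10.7%, and 11.2% lower in WT, clone 1, and clone 2. *Skil*, a SMAD corepressor induced by the pathway, rose by 3.06 in WT, 3.37 in clone 1, and 3.75 in clone 2 (adjusted p = 7.52e-24, 1.06e-23, and 1.54e-25). *Tgfb3*, a ligand, rose by 3.82, 3.08, and 3.50 (adjusted p = 3.14e-28, 8.64e-26, and 1.99e-27). The 1 gene lower in each genotype was *Tgfb2*, another ligand (-1.57, -1.31, and -2.21). *Tgfbr3*, which encodes the coreceptor betaglycan, was at 44.5 ± 3.75 CPM (SD, n = 3) in stimulated WT and at 90.8 ± 9.79 and 90.5 ± 7.04 CPM in stimulated clones 1 and 2 (log2 1.03 and 1.02, adjusted p = 3.48e-12 and 5.86e-12). Its response differed from WT by 1.82 and 2.22, and that of *Hmga2*, a chromatin factor upstream of *Snai1* and *Twist1*, by 1.25 and 1.65 (adjusted p = 1.87e-09 and 9.32e-13). Against WT, *Hmga2* was at -1.59 and -0.55 in uninduced clones 1 and 2 and at -0.34 and 1.10 in the stimulated clones. *Tgfbr3* was at -0.78 and -1.19 uninduced.

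Among 7 bHLH partners and inhibitors of the Twist factors, medians of the response were -1.20 in WT, -0.62 in clone 1, and -0.71 in clone 2. *Id2*, which encodes an inhibitor of E proteins, was at 68.4 ± 2.71 CPM in uninduced and 1.89 ± 0.189 CPM in stimulated WT (log2 -5.18, adjusted p = 7.21e-25) and fell in both clones too (-3.67 and -5.03, adjusted p = 1.80e-20 and 2.30e-23). *Id1* and *Id3* fell in WT (-1.36 and -1.20, adjusted p = 2.76e-14 and 2.53e-13) and were under the fold threshold in the clones. *Id4*, named after its values were seen because its mean was under 5 CPM, was the fourth gene called lower in WT and was also called lower in clone 2. Of all tested genes 13.6% were called lower in WT and 11.2% in clone 2. In clone 1 *Id4* had 4 counts uninduced and 18 stimulated (1.85, adjusted p = 0.0615), and its response differed from WT by 3.73 (adjusted p = 0.00373). Of 14 corepressors and cofactors (medians of -0.29 and -0.11 in stimulated clones 1 and 2 against WT), *Ajuba*, a LIM protein that binds Snail, was called lower in both stimulated clones (-2.00 and -1.72, adjusted p = 8.82e-18 and 4.01e-16), and *Hdac1* in clone 1 (-1.10). *Hdac1* was at -0.94 in stimulated clone 2 and at -0.72 and -0.86 in uninduced clones 1 and 2, under the fold threshold. *Ajuba* went from 37.3 ± 6.33 to 95.2 ± 2.60 CPM in WT, from 35.7 ± 3.01 to 23.8 ± 0.757 CPM in clone 1, and from 26.9 ± 1.02 to 28.8 ± 2.54 CPM in clone 2. The response of *Ajuba* differed from WT by -1.94 and -1.25 (adjusted p = 2.75e-13 and 4.35e-09). *Wwtr1*, which encodes TAZ, rose in each genotype (1.39, 1.77, and 1.83). Of 10 regulators of Snail protein turnover (median response in WT 0.28), *Pak1*, a kinase of Snail, was the gene called, higher with stimulation in WT (1.33) and clone 2 (1.50) and lower in stimulated clone 1 than in WT (-1.02). The response of *Pak1* in clone 1 was 0.96, under the fold threshold, and its difference from WT (-0.37) was not called.

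Family relatives and other mesenchymal transcription factors (24 of 31 tested) included 2 called higher and 6 called lower in stimulated clone 1 and 8 called in stimulated clone 2, each lower, with medians of -0.42 and -0.07. Of all tested genes 19.0% and 16.9% were called either way. In the uninduced cells 1 relative was higher and 8 were lower in each clone (medians -0.46 and -0.31), beside 15.1% of all tested genes in each. *Scx*, a bHLH factor of tendon progenitors, went from 3.24 ± 1.46 to 32.0 ± 2.06 CPM with stimulation in WT, from 9.01 ± 1.37 to 6.42 ± 1.02 CPM in clone 1, and from 12.6 ± 0.473 to 14.7 ± 2.82 CPM in clone 2. Its response differed from WT by -3.74 and -3.03 (adjusted p = 6.94e-11 and 1.73e-09). *Osr2*, an odd-skipped factor, was lower in both stimulated clones (-1.94 and -3.04, adjusted p = 5.34e-10 and 1.27e-12), and the response of *Foxc2*, a forkhead factor, was larger than in WT (1.76 and 1.54, adjusted p = 1.39e-14 and 1.89e-13). *Osr2* was already lower in uninduced clones 1 and 2 (-1.37 and -2.07). Against WT, *Foxc2* was at -1.33 and -0.70 uninduced and at 0.42 and 0.83 stimulated. With stimulation 4 relatives were called higher and 2 lower in WT, 7 and 3 in clone 1, and 6 and 4 in clone 2, with *Foxf2* higher in each (1.88, 2.73, and 2.46). Of all tested genes 19.9%, 16.7%, and 17.7% were called either way.

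Of 34 epithelial genes that EMT factors are known to repress, 5 passed the filter. *Cdh1*, which encodes E-cadherin, had 46 counts over the 3 uninduced and 9 over the 3 stimulated WT libraries, 57 and 0 in clone 1, and 241 and 1 in clone 2. These are means of 0.723 and 0.142 CPM, 0.989 and 0 CPM, and 2.92 and 0.019 CPM. *Cdh1* was called lower with stimulation in every genotype (adjusted p = 0.00215, 1.06e-06, and 3.69e-08), and *Cldn1*, a tight junction gene named after its values were seen, in both clones (-1.92 and -1.96, adjusted p = 0.0242 and 0.0326). In WT *Cldn1* had 69 counts uninduced and 151 stimulated (1.11, adjusted p = 0.0698). The response of *Tjp1*, also a tight junction gene and likewise named after its values were seen, was 0.59 in WT, 0.03 in clone 1, and 0.27 in clone 2, under the fold threshold. Of 34 tested mesenchymal genes, 14 were called higher and 3 lower with stimulation in WT, 13 and 4 in clone 1, and 16 and 5 in clone 2 (medians 0.81, 0.70, and 0.83). Of all tested genes 6.25%, 5.95%, and 6.46% were called higher and 13.6%, 10.7%, and 11.2% lower. In the stimulated clones 2 mesenchymal genes were higher than WT and 6 (clone 1) or 8 (clone 2) lower, with medians of -0.34 and -0.18. Of all tested genes 19.0% and 16.9% were called there either way. Those higher were *Itga5* in both (1.12 and 1.40), *Mmp3* in clone 1 (2.55), and *Mmp2* in clone 2 (1.06), named after their values were seen. *Acta2*, the smooth muscle actin of myofibroblasts, went from 274 ± 19.3 to 2036 ± 84.4 CPM in WT, from 419 ± 6.63 to 308 ± 7.30 CPM in clone 1, and from 193 ± 6.93 to 323 ± 23.0 CPM in clone 2. It was lower in both stimulated clones (-2.73 and -2.65, adjusted p = 1.27e-26 and 2.35e-26). *Wnt5b*, a secreted Wnt ligand, was also lower (-4.93 and -5.15, adjusted p = 4.02e-26 and 6.56e-26), and *Wnt5a* had 2588 counts over the 3 stimulated WT libraries against 1 and 5 in the stimulated clones. Both Wnt genes were already lower in uninduced clones 1 and 2, *Wnt5b* by -3.72 and -3.99 and *Wnt5a* by -10.1 and -6.96. *Acta2* was at 0.61 and -0.50 uninduced. *Pdgfra*, a receptor of fibroblast progenitors, was lower by -1.24 and -1.28 (adjusted p = 2.81e-19 and 1.43e-19), and among the 10 fibroblast markers it was 1 of 2 called lower in stimulated clone 1 and 1 of 3 called lower in stimulated clone 2. The others were the proteoglycan gene *Lum* in both (-4.44 and -4.24, adjusted p = 3.33e-18 and 4.59e-17) and *Thy1* in clone 2 (-7.14, adjusted p = 2.14e-25). In uninduced clones 1 and 2 against WT, *Pdgfra* was already at -1.60 and -1.26 and *Lum* at -2.61 and -1.17. *Thy1* was at -6.62 in uninduced clone 2. Called higher were *Thy1* in stimulated clone 1 (1.72, adjusted p = 4.99e-19) and *Dcn*, another proteoglycan gene, in stimulated clone 2 (1.21, adjusted p = 8.13e-08). The same clones were also higher uninduced, at 1.63 for *Thy1* and 1.40 for *Dcn*.

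No annotated gene overlaps *Snai1*, *Snai2*, or *Twist1*. The antisense gene *Zeb2os* held 374 counts over all libraries, equal to 1.24% of those of *Zeb2*. Overlapping genes held 0.762% of the counts of *Zeb1* and 0.0162% of those of *Prrx1*. No stretch of 75 bases of a member was shared with another gene. The 24 nearest tested genes of *Zeb2* had medians of 0.12 and 0.01 in stimulated clones 1 and 2 against WT, and those of *Snai1* had a median of 0.21 in uninduced clone 1, where *Snai1* itself was at -1.07.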

How the data were processed

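Poly(A) RNA of 18 libraries was sequenced. The authors mapped reads to mm10 with HISAT2 (per the labels) and deposited raw counts per gene, with gene position and length. How reads were counted, with which annotation release and strand setting, is not given in the sources used here. All per-sample columns were mapped to libraries. The members and gene lists were chosen with earlier results of these data known.

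The tools were edgeR 4.0.16 for the reported tests and DESeq2 1.42.0 as an alternative, run with limma 3.58.1 under R 4.3.3. Tables and figures used Python 3.11.15, pandas 2.3.3, numpy 2.4.6, and matplotlib 3.10.9. The filter was filterByExpr, applied by group with a minimum count of 10, and libraries were scaled with TMM. All libraries entered 1 fit with a coefficient per group (6 groups), made with glmQLFit (robust) and tested with glmQLFTest. In 11 comparisons, a call needed an adjusted p (Benjamini-Hochberg, all tested genes) under 0.05 and a log2 fold change above 1 in size. CPM are TMM-scaled, and correlations used log2 CPM with a prior count of 2. On data simulated for stimulated clone 1 against WT (14317 genes), 76 of 100 genes changed 2.5-fold and 92 of 100 changed 4-fold were called, with 2 false calls. Floors of 3 counts cover counting error only. Alternatives were DESeq2, its size factors, no filter, no fold threshold, only the groups compared, a replicate block, each library left out, and total counts as library size (chosen after seeing the data).

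Named were the members, *Foxs1*, overlapping or adjacent genes, the 3 genes most like each tested member by Pearson r over the 18 libraries (mean of at least 5 CPM, no Gm or Rik name), markers of cell types, and from each list at most 4 called genes per comparison (same minimum of 5 CPM) with the largest absolute log2 fold change, those called the same way in both clones first. Some genes that this rule names are not reported here. Lists were family relatives, bHLH partners and inhibitors, corepressors and cofactors, protein turnover regulators, the upstream TGF-β arm, epithelial genes, mesenchymal genes, and markers of fibroblasts, adipocytes, immune, endothelial, and skeletal muscle cells. Promoters came from RefSeq (GRCm38.p6), and windows of 6 of the 8 members were searched. Any member entry on chromosome 18, where *Zeb1* lies, was left out of this search.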

Additional observations from a re-analysis of the deposited data

Results flagged for a closer look

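In each clone 6 of the 7 members with counts had a response to stimulation that differed from that of WT, by a test of the difference itself (edgeR's quasi-likelihood test, interaction contrast, adjusted p below 0.05). In clone 1 the differences on the log2 scale were 1.08 for *Snai1*, 0.27 for *Snai2*, 0.86 for *Twist2*, -1.12 for *Zeb1*, 0.92 for *Zeb2*, and -0.71 for *Prrx1*. In clone 2 they were 0.74 for *Snai1*, 0.50 for *Snai2*, 0.92 for *Twist2*, -0.83 for *Zeb1*, 1.34 for *Zeb2*, and -0.42 for *Prrx1*. Among all tested genes 31.6% and 31.2% differed in this way. Both sets of differences use the same WT libraries.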

How the results depend on the processing

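Without the fold threshold the members called numbered 5 and 6 in stimulated clones 1 and 2 against WT, 6 and 4 in the uninduced clones, 7 and 5 for the response in WT and clone 2, 6 and 6 for the response differences, and 6 and 4 between the clones (stimulated and uninduced). Leaving out 1 library gave 1 to 2 calls in stimulated clone 2 against WT, since *Snai2* reached 1.04, 1.00, and 1.00 without replicate 2 of stimulated WT or replicates 1 or 3 of stimulated clone 2. It gave 1 to 2 calls for the response difference of clone 2, where *Twist2* reached 1.01, 1.05, and 1.02 without replicate 2 of stimulated WT, replicate 1 of uninduced WT, or replicate 3 of uninduced clone 2. Calls also went to 5 for the response in WT (*Twist2* at -1.06 without replicate 2 of stimulated WT and -1.10 without replicate 1 of uninduced WT) and to 3 for the response difference of clone 1 (*Twist2* at 1.01 without replicate 3 and *Zeb2* at 1.03 without replicate 1 of stimulated clone 1). With total counts as library size, chosen after seeing the data, stimulated differences became -0.021 for *Snai1* in clone 1 and -0.051 for *Twist1* in clone 2, and responses became -0.055 for *Twist1* and -0.19 for *Prrx1* in clone 1 and -0.057 for *Zeb1* and -0.26 for *Zeb2* in clone 2. Without the filter *Zeb2* in uninduced clone 2 was at 0.037. Values near 0 changed sign without 1 library: *Snai1* stimulated clone 1 (-0.022 to 0.050), *Zeb2* uninduced clone 2 (-0.053 to 0.081), the responses of *Twist2* (-0.21 to 0.048) and *Zeb1* (-0.084 to 0.0098) in clone 1 and of *Twist2* (-0.14 to 0.047) and *Zeb2* (-0.015 to 0.11) in clone 2, and, between clones, *Twist2* stimulated (-0.21 to 0.023), *Snai2* uninduced (-0.11 to 0.038), and *Twist2* uninduced (-0.15 to 0.037). Causes were not tested. With total counts 31 of 42 levels per length moved beyond 1 SD, by -12.6% to 10.3%, and the order of the members was the same in all 6 groups.

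Deviations of same-numbered libraries from their group means had r of -0.041 to 0.050. This measure cannot show a link of small effect or on few genes, and a common source of these libraries was not tested. With the replicate block the members called were 2 and 1 (stimulated), 1 and 0 (uninduced), 4, 2, and 2 (responses), 2 and 1 (response differences), and 0 and 0 (between clones), and no member changed its call. *Twist2*, with 1138 counts over all libraries, had the widest standard errors of the members tested.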
